A study of Sus scrofa with 46 samples.

Results

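Liver RNA sequencing of 25 piglets was used to ask how growth-restricted and normal-sized animals differed when both had been fed an energy supplement. The group labelled "IUGR, energy treatment" held 13 piglets and the group labelled "Normal, energy treatment" held 12, out of 46 livers sequenced in all. Members were the count columns headed by the pig numbers in those sample titles, and no measured value entered the choice. Animals of both groups were offspring of Danish Landrace × Danish Yorkshire sows and Duroc boars, sampled at 72 h of age after colostrum from their own dam and transfer to a nurse sow. Intrauterine growth restriction (IUGR), inadequate growth before birth, was assigned by visual grading of the head and face at birth. It is therefore a graded shape and not a measured weight class. All 25 animals received Piggy Boost, an oral paste of colostrum, fatty acids and vitamins, while 10 IUGR and 11 normal-sized piglets without paste supplied the reference for the test of whether the contrast itself depended on the paste.

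As background, the newborn liver shifts within hours from placental glucose to the fat and lactose of milk. It must burn fatty acids, make glucose and ketone bodies, export lipoproteins and secrete insulin-like growth factor 1, the main endocrine growth signal. The fetal liver is also a store of zinc bound to metallothioneins, small cysteine-rich proteins whose genes are switched on by zinc and by glucocorticoids.

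The treated libraries held 15036565 to 19340207 counts with 15767 to 16100 genes detected, and levels are given in CPM, counts brought to a common library size after scaling for composition. Defining markers of hepatocytes were abundant, and the 11 measured summed to 47200 to 176000 CPM in IUGR and 108000 to 171000 in normal livers. Pigs 39 and 46, both IUGR, stood apart from the other 23 treated libraries. Their median correlation with all other libraries was 0.867 to 0.894 against 0.980 to 0.986, and their hepatocyte markers summed to 47200 and 60900 CPM. Values without this pair are given beside many of the results, but not for every gene named. In bulk tissue, fewer cells of a type and less RNA per cell cannot be told apart.

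**Figure D1:**
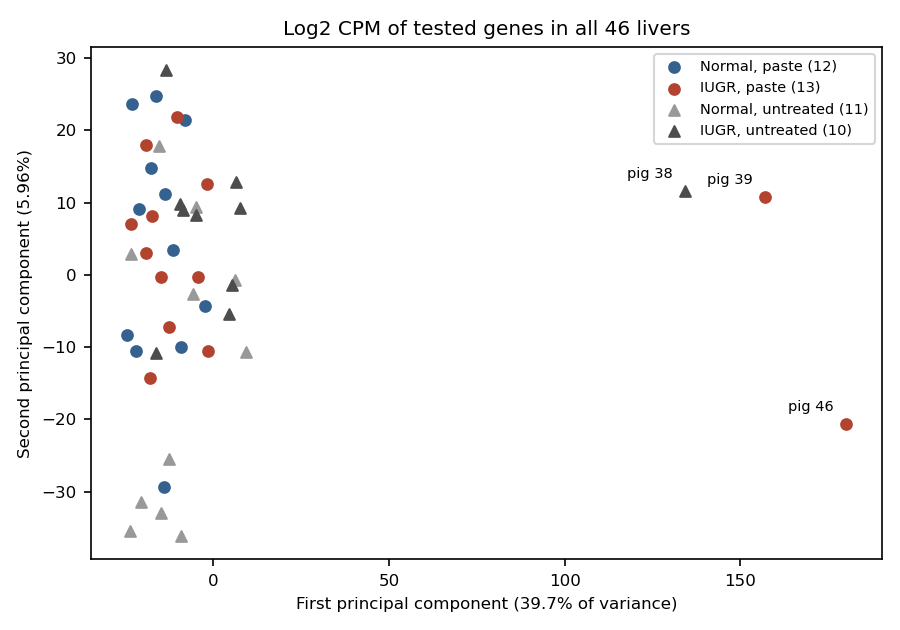
First and second principal components of log2 CPM in all 46 livers, which carry 39.7% and 5.96% of the variance (both axes in component scores). Circles are piglets given paste and triangles are untreated piglets. Pigs 39 and 46, with untreated IUGR pig 38, lie far to the right, and the other treated piglets of both sizes overlap.

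The column headings themselves were open to doubt. As a check of them, *PDK4*, *CEL*, *CXCL12*, *SDF2L1* and *ENHO*, which the study's text names for untreated piglets, were tested in the untreated livers with DESeq2. Under the headings as deposited 0 of the 5 passed in the named direction, and 5 of 5 did when the same headings were sorted as text, an order that earlier work on these files had found from this outcome. Under that order 17 of the 25 treated columns would belong to a piglet of another group. An order picked by its outcome cannot define groups, so the deposited headings were kept, and every difference below holds only if they are right.

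Across the transcriptome few differences between the sizes passed adjustment over all genes. Of 13780 genes tested, 1 passed an adjusted p of 0.05 (edgeR quasi-likelihood test, Benjamini-Hochberg), which is 0.00726%, and it was higher in IUGR livers. No gene had groups that did not overlap (0%). At an unadjusted p of 0.05, 2301 genes differed (16.7%), 1888 higher (13.7%) and 413 lower (3%) in IUGR. Without pigs 39 and 46 these shares became 2.07% and 2.42%, with 0 genes past the adjusted threshold. Sex was not in the labels, but *EIF1AY*, a Y-linked gene, was below 10 CPM in 5 of 13 IUGR and 5 of 12 normal livers.

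The gene that passed was *COL27A1*, which encodes the chain of type XXVII collagen, a fibrillar collagen known mainly from cartilage (chromosome 1, 254768576 to 254924893, Sscrofa11.1). In normal livers its level ran from 6.08 through a median of 10.5 to 16.2 CPM. In IUGR livers it ran from 14.0 through 20.3 to 29.1 CPM. All 13 IUGR livers lay above the normal median and 10 of them above the highest normal liver, while 11 of the 12 normal livers lay below the lowest IUGR liver and pig 68, at 16.2 CPM, reached into the IUGR range. The log2 fold change was 0.97 ± 0.18 (SE), with an adjusted p of 0.0458. Pig 46 was the highest IUGR liver and pig 39 lay within the group, and without both the log2 fold change was 0.93 with an adjusted p of 0.0887. The call was also lost in 17 of the 25 fits that left out 1 treated library each, with log2 fold changes of 0.91 to 1.03 and adjusted p of 0.02 to 0.152 over the 25. In untreated piglets the same contrast had a log2 fold change of 0.15. The difference between both contrasts had an unadjusted p of 0.00381 and did not pass over all genes.

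None of the other genes with the smallest p in the higher direction passed, each with an adjusted p of 0.204 or more. *PLPP2*, which encodes a phosphatase of lipid phosphates such as phosphatidic acid, ran from 8.98 through a median of 14.9 to 30.7 CPM in IUGR and from 6.92 through 9.15 to 13.1 in normal livers. Its log2 fold change was 0.70 ± 0.16, and 0.53 without pigs 39 and 46. For 7 of the 13 IUGR livers the level was above every normal liver, and pig 46 was the highest. *SORBS3* encodes vinexin, an adaptor at sites of cell adhesion, and had medians of 33.1 and 24.8 CPM in IUGR and normal livers and a log2 fold change of 0.55 ± 0.14. The highest IUGR value, 87.9 CPM in pig 46, was far above the rest, and the log2 fold change without the pair was 0.33. *FGD1*, an exchange factor for the small GTPase Cdc42, had medians of 17.4 and 12.2 CPM and a log2 fold change of 0.73 ± 0.18 that was 0.61 without the pair. *NFATC4*, a transcription factor that responds to calcineurin, had log2 fold changes of 0.72 with all libraries and 0.49 without pigs 39 and 46. The corresponding values were 0.77 and 0.53 for *PRAF2*, 0.58 and 0.32 for *TMEM104*, and 0.78 and 0.55 for *LOC100513863*. In each of these cases pig 46 was the highest IUGR liver. Near the detection limit, *CRB2*, a membrane protein of the Crumbs cell polarity complex, had medians of 0.633 and 0.156 CPM, and *FNDC7* had 1.2 and 0.518. The highest IUGR value of *CRB2*, 1.71 CPM, was that of pig 39.

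**Figure D2:**
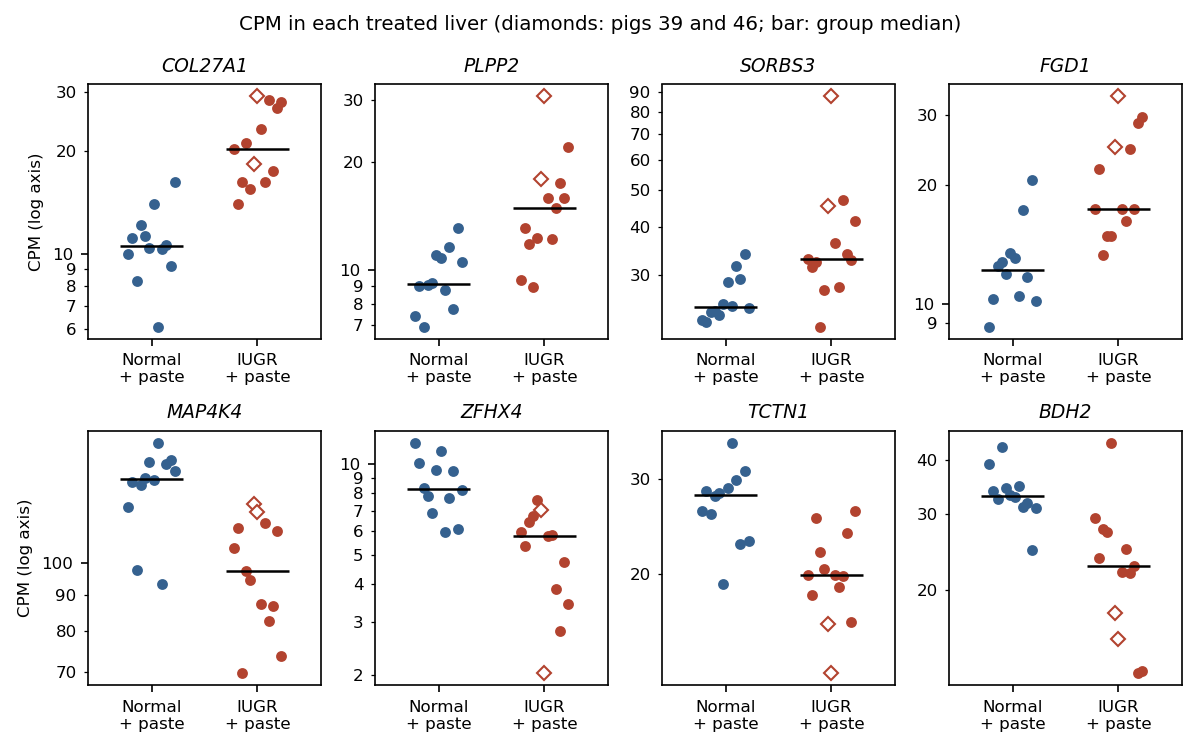
CPM (log axis) of 8 named genes in each treated liver, with normal-sized piglets in blue and IUGR piglets in red. Bars are group medians and open diamonds are pigs 39 and 46. For *COL27A1* all IUGR points lie above the normal median of 10.5 CPM, and in each panel the ranges of the groups overlap.

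In the lower direction no gene passed, and the 10 with the smallest p had adjusted p of 0.204 to 0.208. *MAP4K4* encodes a serine/threonine kinase upstream of JNK signalling (chromosome 3, 52483028 to 52649480). Its level ran from 69.7 through a median of 97.2 to 121 CPM in IUGR and from 93.3 through 132 to 148 in normal livers. Every IUGR liver lay below the normal median, and 9 of 12 normal livers lay above the highest IUGR liver, with pigs 7 and 50 the low normal animals. The log2 fold change was -0.38 ± 0.09. Pigs 39 and 46 were here the highest IUGR livers, and without them the log2 fold change was -0.45 with an adjusted p of 0.0887.

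*BDH2*, a cytosolic dehydrogenase of 3-hydroxybutyrate, ran from 12.8 through a median of 22.7 to 43.8 CPM in IUGR and from 24.7 through 32.9 to 42.7 in normal livers. Its log2 fold change was -0.53 ± 0.14, beside -0.41 in untreated piglets. Pigs 39 and 46 had 17.7 and 15.4 CPM of *BDH2*. *TCTN1*, a protein of the transition zone at the base of cilia, had medians of 19.9 and 28.1 CPM and a log2 fold change of -0.44 ± 0.12. The homeobox transcription factor *ZFHX4* had medians of 5.78 and 8.24 CPM and a log2 fold change of -0.72 ± 0.18. *METTL6*, which methylates transfer RNA, and *GPATCH2* had log2 fold changes of -0.34 and -0.39. These 4 moved little when pigs 39 and 46 were left out, to -0.38, -0.69, -0.31 and -0.33 in the order named. At lower levels, *LAMB4*, a laminin beta chain, had medians of 0.570 and 2.37 CPM with a log2 fold change of -1.45 ± 0.35, and *LOC110260350* had 1.58 and 5.76 CPM with -1.89 ± 0.46. Pigs 39 and 46 were the lowest for *LAMB4*, at 0.351 and 0.382 CPM.

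*SLC30A1* was also among these genes. It encodes the exporter that carries zinc out of the cell and is itself switched on by zinc (chromosome 9, 131633586 to 131636934). Its level ran from 1.99 through a median of 4.24 to 19.9 CPM in IUGR livers and from 2.87 through 15.2 to 20.6 in normal livers. The highest IUGR value was pig 33 and the next was 6.32 CPM, while the lowest normal value was pig 66 and the next was 7.70 CPM, so 12 IUGR and 11 normal livers lay apart. The log2 fold change was -1.43 ± 0.34 with an adjusted p of 0.204, and -1.42 without pigs 39 and 46. When pig 33 alone was left out, *SLC30A1* passed, as did *BDH2* and *LAMB4* in the same direction and *COL27A1*, the 4 genes called in that fit (0.029%). Pig 33 was also the highest IUGR liver for *BDH2*, at 43.8 CPM, and for *LAMB4*, at 3.9 CPM. Leaving out the IUGR liver most against a lower level favours such calls, so they are no separate support. In untreated piglets the log2 fold change of *SLC30A1* was 0.18, and the difference between contrasts had an unadjusted p of 0.00258 and an adjusted p of 0.384.

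The metallothioneins are the best known zinc-responsive genes, and *MT1A* also stood in the list of glucocorticoid targets, so the whole cluster was read out after these values had been seen. Its 6 genes lie on chromosome 6 between 18634735 and 18673673, and *MT3* and *LOC100739663* were too low to test. *MT1A* ran from 0.395 through a median of 2.19 to 78.7 CPM in IUGR and from 0.878 through 16 to 322 in normal livers. The 3 highest IUGR livers were pigs 46, 33 and 39, at 14.2, 31.5 and 78.7 CPM, and 10 of 13 were below 10 CPM. In 5 normal livers, pigs 64, 7, 1, 22 and 4, the level was 123 CPM or more, and in 4 it was below 10 CPM. Its log2 fold change was -3.06 ± 0.99 (adjusted p 0.216), and -4.28 without pigs 39 and 46, where the unadjusted p was 0.000415.

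The other members tested had the same sign and wide, overlapping ranges. *MT-2B*, the most abundant, ran from 5.20 through a median of 10.9 to 452 CPM in IUGR, where the top value was pig 39, and from 8.37 through 85.2 to 574 in normal livers. Its log2 fold change was -1.66 ± 0.79, and -2.99 without the pair. *MT1D* had medians of 1.30 and 17.3 CPM with a log2 fold change of -2.95 ± 0.90, and *LOC102166944*, between *MT1D* and *MT1A*, had medians of 1.46 and 20.5 CPM with -2.66 ± 1.01, or -4.40 without the pair. None passed over all genes, and all 4 tested members had an unadjusted p under 0.05, against 3% of all genes lower at that level. Counts of near-identical members can be split among them, so the genes of the cluster are not separate measurements. Normal pigs 66 and 31, the lowest for *SLC30A1*, were also the lowest for *MT1A* and *MT-2B*. *MTF1*, the zinc sensor that switches on these genes, had medians of 16.9 and 17.3 CPM and a log2 fold change of 0.01 ± 0.07, or -0.03 without the pair.

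Among the zinc transporters of the SLC30A and SLC39A families, also listed after the values were seen, 19 of 24 could be tested and their median log2 fold change was -0.12, or 0.0 without pigs 39 and 46. At an unadjusted p of 0.05 *SLC30A1* was lower and *SLC39A7*, which releases zinc from the endoplasmic reticulum, was higher, with a log2 fold change of 0.31 ± 0.10 and 0.18 without pigs 39 and 46. *SLC39A14*, a zinc and iron importer of hepatocytes, had medians of 220 and 234 CPM and a log2 fold change of 0.07 ± 0.11, or 0.11 without the pair. *SLC30A10*, a manganese exporter, had -0.27 ± 0.17, or -0.15 without the pair. *SLC39A10*, of the same families, had 2.81 and 1.96 CPM in pigs 39 and 46, and 15.7 to 45.1 CPM in normal livers. IUGR pigs 49, 59, 65 and 58 lay above that normal range, at 60.8, 58.7, 58.6 and 50.7 CPM. The remaining IUGR livers lay within it, and the list medians do not show this split.

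**Figure D3:**
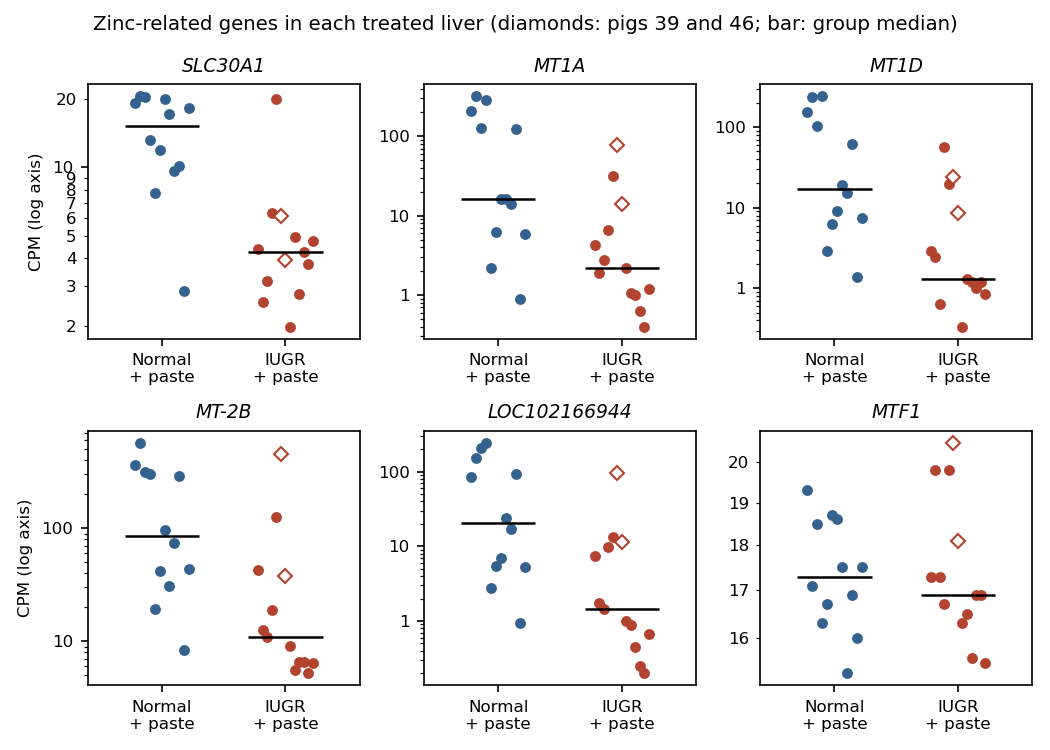
CPM (log axis) of the zinc exporter gene *SLC30A1*, 4 metallothionein genes and the zinc sensor *MTF1* in each treated liver, with normal-sized piglets in blue and IUGR piglets in red. Bars are medians and open diamonds are pigs 39 and 46. *SLC30A1* medians were 15.2 in normal and 4.24 CPM in IUGR livers, while *MTF1* medians were 17.3 and 16.9.

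Gene lists for the metabolism of the newborn liver held no member past the adjusted threshold, and are described by counts at an unadjusted p of 0.05 beside the 13.7% higher and 3% lower of all genes. Counts without pigs 39 and 46, here and below, stand beside 2.07% higher and 2.42% lower of all genes in that fit. Cholesterol synthesis stood highest among the metabolic lists, with 10 of 22 genes higher, 0 lower and a median log2 fold change of 0.41 against 0.02 for all genes. Without pigs 39 and 46 its median was 0.30 against -0.004, with 5 genes higher, and in untreated piglets it was 0.27. *MVD*, which makes isopentenyl diphosphate, ran from 20.1 through a median of 24.3 to 104 CPM in IUGR and from 13.4 through 20.4 to 32.4 in normal livers. Its log2 fold change was 0.83 ± 0.27, and 0.60 without pigs 39 and 46, which had 39.7 and 95.3 CPM. The enzymes *NSDHL* and *LSS* of the same route had log2 fold changes of 0.38 and 0.47, and 0.31 and 0.25 without the pair.

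Nuclear-encoded genes of oxidative phosphorylation had a median log2 fold change of 0.10, with 13 of 37 higher and 0 lower. Leaving out pigs 39 and 46 gave a median of 0.12 and 3 genes higher. *NDUFS3*, a subunit of complex I, had medians of 67.6 and 51.2 CPM in IUGR and normal livers and a log2 fold change of 0.43 ± 0.12, which was 0.38 without the pair. Of the same complex, *NDUFA8* and *NDUFB9* had 0.44 and 0.42, or 0.28 and 0.25 without the pair, and *ATP5MC1* of ATP synthase had 0.52 and 0.27. The Krebs cycle and pyruvate dehydrogenase list had a median of 0.06, with 3 of 27 genes higher and 1 lower. Without the pair the median was 0.05, with 1 higher and 1 lower. *PDP1*, the phosphatase that activates pyruvate dehydrogenase, had the lowest value of the list, -0.53 ± 0.19.

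Glycolysis moved with the pair that stood apart. With all libraries 9 of 20 genes were higher and the median was 0.28, while leaving out pigs 39 and 46 gave 1 gene higher and a median of 0.11. The share of all genes that were higher fell as well, from 13.7% to 2.07%. *GAPDH* reached 2250 and 3640 CPM in those animals, against 958 to 1540 in normal livers, and its log2 fold change was 0.47 with them and 0.24 without. *PKLR*, the liver pyruvate kinase, had 0.41 and 0.30, *ALDOA* 0.43 and 0.18, and *ENO1* 0.43 and 0.16. Fatty acid and triglyceride synthesis had 6 of 22 genes higher, 1 lower and a median of 0.14, and without the pair 1 higher, 0 lower and a median of 0.05. *FASN*, the fatty acid synthase, had a log2 fold change of 0.71 ± 0.31, and 0.27 without the pair, while *ACLY*, which makes cytosolic acetyl-CoA, had 0.35 and 0.36.

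Lists for the use of fat and the making of glucose lay close to all genes. Fatty acid oxidation had a median of 0.01 with 3 of 25 genes higher, and 0 without pigs 39 and 46. The smallest p was that of *CPT2*, which loads fatty acids into mitochondria, at 0.54 ± 0.21 and 0.37 without the pair. Of 5 genes of ketone body synthesis none had a p under 0.05. *ACAT1*, which joins acetyl-CoA units, had medians of 127 and 139 CPM and a log2 fold change of -0.27 ± 0.18, or -0.11 without the pair. Gluconeogenesis and glycogen genes had a median of 0.01, or -0.09 without the pair. *PCK1*, a rate-limiting enzyme of glucose synthesis, had medians of 1300 and 1090 CPM and a log2 fold change of 0.50 ± 0.29, or 0.14 without the pair.

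The growth axis gave no call. *IGF1* ran from 1.69 through a median of 7.97 to 29.9 CPM in IUGR and from 3.86 through 8.65 to 44.9 in normal livers, with a log2 fold change of -0.65 ± 0.40 (adjusted p 0.396). Pig 39 had 2.16 CPM and pig 46 the lowest value, 1.69 CPM, and without them the log2 fold change was -0.47. In untreated piglets it was -0.68. *GHR*, the growth hormone receptor, had medians of 54.8 and 71.3 CPM and a log2 fold change of -0.34 ± 0.19, or -0.18 without the pair. *IGFBP4*, which binds insulin-like growth factors, had 0.43 ± 0.18, and 0.17 without the pair.

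The other genes named in the study's text had no unadjusted p under 0.05 in treated piglets. The study names *HAMP* and *LRRC30* for paste against no paste in normal-sized piglets, and the rest for growth restriction. It also reports significant regulation of *PDK4*, *CEL*, *SDF2L1* and *IGF1* by qPCR. *PDK4*, the kinase that shuts off pyruvate dehydrogenase, had medians of 137 and 200 CPM in IUGR and normal livers and a log2 fold change of -0.39 ± 0.40, or -0.21 without pigs 39 and 46, which had 38.6 and 43.4 CPM. *HAMP*, which encodes the iron hormone hepcidin, ran from 0.127 through 0.568 to 177 CPM and from 0.0589 through 0.402 to 273, a spread of the same kind in both groups. *CXCL12*, a chemokine, had -0.07 ± 0.17 and *SDF2L1*, a protein of the endoplasmic reticulum, 0.08 ± 0.26. Pigs 39 and 46 had 42.9 and 52.2 CPM of *SDF2L1*, and without them its log2 fold change was -0.16. *CEL*, a bile salt-dependent lipase, had 0.25 ± 0.51. *ENHO*, which encodes adropin, had 0.23 ± 0.32 and *LRRC30* 0.35 ± 0.46, and both turned negative without the pair, at -0.29 and -0.07. A p above the threshold does not show that the levels were equal.

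Interferon response genes pointed down in treated IUGR livers without any passing. Of 36 tested, 33 had a negative log2 fold change and 3 a positive one, where 52.5% of all genes were positive. In this list 5 were lower at an unadjusted p of 0.05, against 3% of all genes, and the median was -0.74. Without pigs 39 and 46 the median was -0.64 with 1 gene lower, and in untreated piglets it was -0.61. *IFIT3*, which binds to other antiviral proteins of its family, ran from 3.96 through a median of 20.5 to 94.2 CPM in IUGR and from 9.33 through 50.7 to 180 in normal livers, with a log2 fold change of -1.23 ± 0.58. *IFI44L* and *IFI44* had -1.10 and -1.18. *STAT2*, which carries the interferon signal to the nucleus, had a narrower spread, with medians of 143 and 183 CPM and -0.37 ± 0.13 (-0.35 without the pair). Genes of 1 response are not independent of each other.

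Other immune lists differed in how far they moved with the pair. Antigen presentation had 6 of 18 genes higher at an unadjusted p of 0.05, against 13.7% of all genes, and a median of 0.38. Without pigs 39 and 46 the median was 0.04 with 0 genes higher. *CD74*, the invariant chain of class II molecules, had 399 and 221 CPM in them, against 26.5 to 83.6 in normal livers. *SLA-DMA*, *SLA-2* and *SLA-DQB1* had log2 fold changes of 0.64, 0.67 and 0.62, and 0.32, 0.21 and 0.01 without the pair. T and NK cell markers, 9 of 23 high enough to test, had 5 higher, beside the same 13.7% of all genes. Their summed level was 22.6 to 64.6 CPM in IUGR and 21.4 to 40.5 in normal livers. Without the pair the IUGR range was 22.6 to 53.7 CPM and 1 marker was higher, *CD3E*, a chain of the T cell receptor complex, with a log2 fold change of 0.86 beside 0.93 with all libraries. Its medians were 0.947 and 0.533 CPM.

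Immediate early genes, which respond within minutes to stimuli, had the highest median of the pathway lists, 0.70. Of the 19 tested, 8 were higher at an unadjusted p of 0.05, against 13.7% of all genes. Without pigs 39 and 46 the median was -0.11 with 0 higher. *FOS* was 202 CPM in pig 46, against a highest normal value of 10.7, and its log2 fold change was 2.49 with all libraries and 0.11 without the pair. *JUNB*, *IER3* and *NR4A2* had 1.34, 1.42 and 1.03 with all libraries and 0.22, 0.08 and 0.10 without. Among heat shock genes *DNAJB1* reached 921 CPM in pig 46, against 32.5 to 153 in normal livers.

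Extracellular matrix genes had 8 of 35 higher and 1 lower at an unadjusted p of 0.05, against 13.7% higher and 3% lower of all genes. Their median was 0.19, which was -0.03 without pigs 39 and 46. This list did not hold *COL27A1* or *LAMB4*, and its log2 fold changes ran from -0.40 to 0.63. *MMP2*, a gelatinase, had medians of 28.5 and 20.9 CPM and a log2 fold change of 0.63 ± 0.16, or 0.39 without the pair. *LAMB1*, a laminin beta chain, had medians of 73.9 and 101 CPM and -0.40 ± 0.11, or -0.37 without. *TIMP2* and *COL6A2* had 0.29 and 0.41, and 0.10 and 0.05 without. Markers of stellate cells and fibroblasts, which make much of this matrix, had a median of 0.08, with 4 of 18 higher beside 13.7% of all genes. Without the pair their median was 0.02 with 0 higher. The part of these cells in the level of *COL27A1* was not tested.

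**Figure D4:**
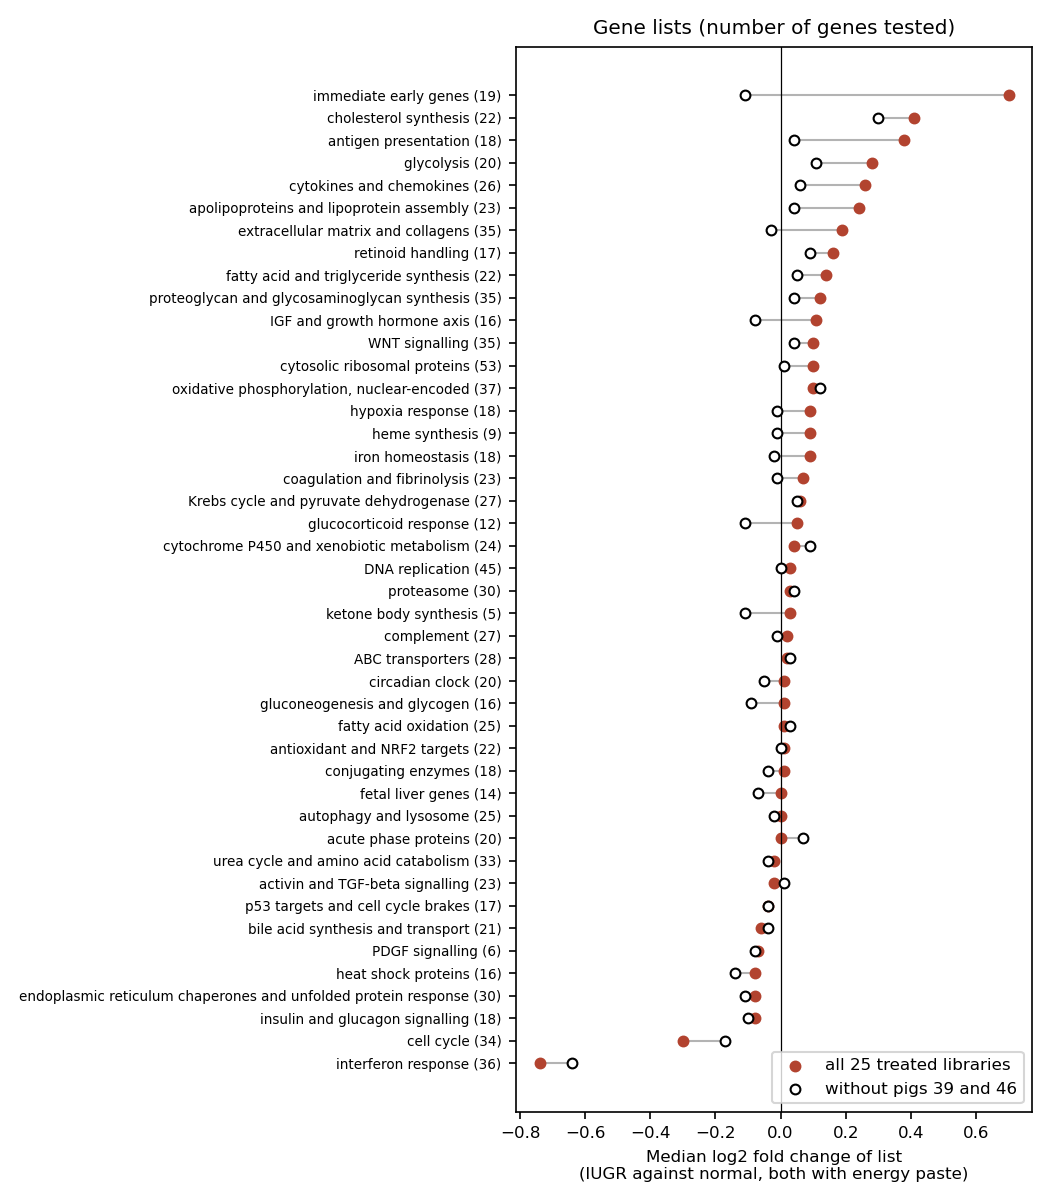
Median log2 fold change (IUGR against normal, both with paste) of each pathway list with at least 5 tested genes, with all 25 libraries (filled) and without pigs 39 and 46 (open). The number tested is in brackets. Immediate early genes moved from 0.70 to -0.11, whereas cholesterol synthesis (0.41 and 0.30) and interferon response (-0.74 and -0.64) kept their sign.

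Proliferation genes gave 0 of 34 cell cycle genes under an unadjusted p of 0.05, beside 13.7% higher and 3% lower of all genes. Their median was -0.30, or -0.17 without the pair. *KIF11* and *DLGAP5*, which build the mitotic spindle, had log2 fold changes of -0.43 and -0.50, and *CCNB3* and *NUSAP1* had -0.39 and -0.36. Without the pair these 4 had -0.23, -0.28, -0.31 and -0.22. DNA replication genes had a median of 0.03 in treated and -0.78 in untreated piglets. Of the 45 genes, *CDT1*, which licenses replication origins, had the smallest p in treated piglets, with 0.47 ± 0.23 and 0.14 without pigs 39 and 46.

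Whether the paste altered the contrast was tested directly as the difference between treated and untreated log2 fold changes. In edgeR 0 of 13780 genes passed (0%), with 918 at an unadjusted p of 0.05 (6.66%). DESeq2 on the same libraries called 8 of 18420 genes with any count (0.0434%). That base takes in genes that DESeq2 can leave out of its adjustment, so its share and that of edgeR have unlike bases. The 3 smallest p values were for *TPD52L1*, *LOC110256296* and *RAB15*, whose contrasts had opposite signs, a form that ranking by the difference favours. Untreated pig 38 stood apart like pigs 39 and 46, and without all 3 of them 1 gene passed in edgeR. *RAB15*, a small GTPase of endosomal recycling, had -0.57 with paste and 0.64 without, a difference of -1.21 ± 0.26 (adjusted p 0.153). Its medians in CPM were 21.5 in IUGR and 34.1 in normal livers with paste, and 31.3 and 19.4 without. *TPD52L1* had 1.01 with paste and -1.57 without, at medians of 2.70 and 1.10 CPM with paste and 0.833 and 2.50 without. *PUDP*, a phosphatase of pseudouridine monophosphate, had 0.40 and -0.35. For *RTP3*, a receptor transport protein made in liver, the treated contrast was -0.06 and the untreated one -1.47, so the difference of 1.40 ± 0.33 came from the untreated animals, where IUGR livers had a median of 18.9 CPM and normal livers 42.9. *DYNC1I1*, a dynein chain, showed the same form with 0.06 and -1.60. *ACE*, the angiotensin-converting enzyme, had -0.33 (-0.57 without pigs 39 and 46) and 1.15, and *SLC14A1*, a urea transporter, -0.84 and 2.25 at levels of at most 3.04 CPM. *SLC5A9*, *LOC110256296* and *LOC100522455* had differences of 2.69, -1.69 and -2.20. The smallest adjusted p in this test was 0.153.

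**Figure D5:**
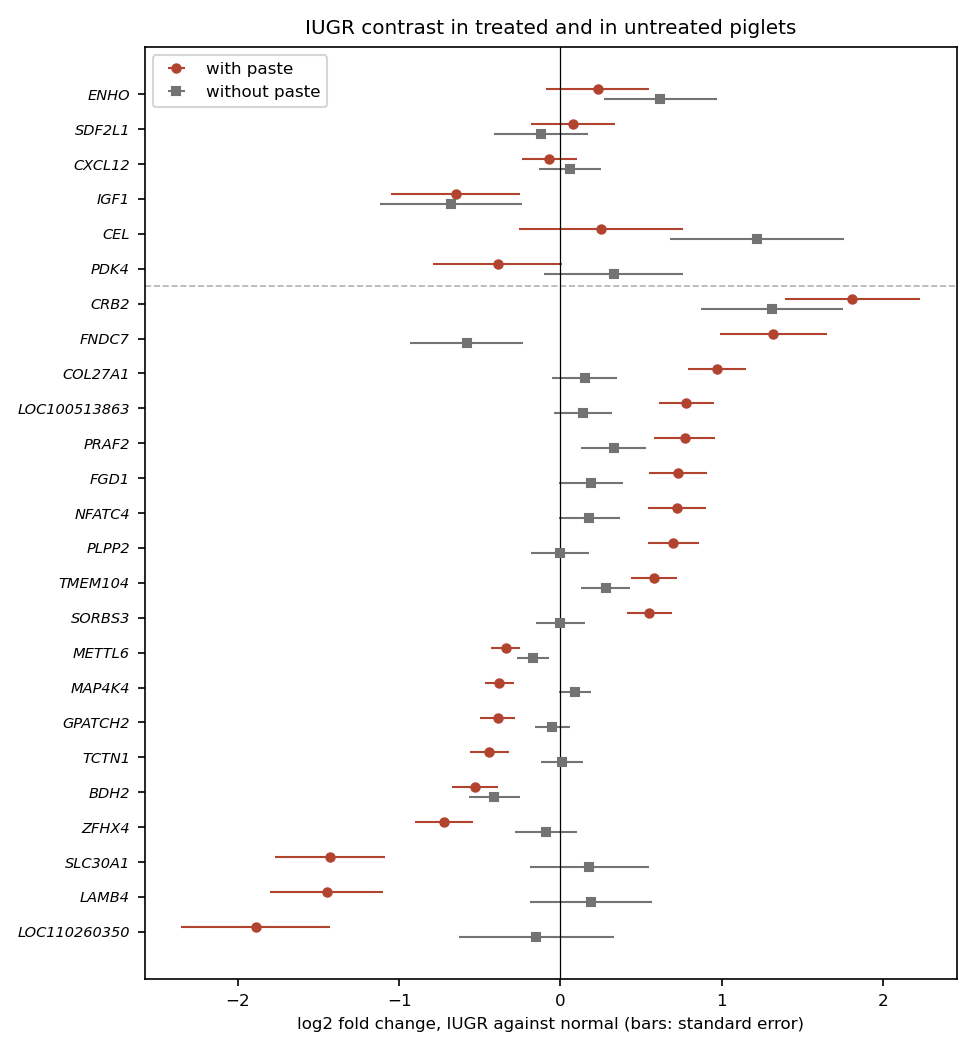
Log2 fold change of IUGR against normal (bars are standard errors) in piglets with paste (circles) and without paste (squares). Below the dashed line are 19 of the genes with the smallest p in treated piglets and above it 6 genes named in the study's text. *COL27A1* had 0.97 with paste and 0.15 without, and the treated values below the line were chosen for being far from 0, which the untreated ones were not.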

How the data were processed

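Estimated counts per gene were deposited by the authors, from paired-end reads mapped to Sscrofa11.1 with Bowtie2. Of the counting program, nothing is given in the sources used here. Processing notes name DESeq2, and 85.9% of values are whole. Counts were rounded. Each column went to the pig that heads it, and all 18440 genes were matched by identifier to RefSeq names.

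edgeR 4.0.16 (R 4.3.3) was run on all 46 libraries with TMM scaling, filterByExpr (minimum count 10), a mean for each of the 4 groups, robust quasi-likelihood tests and Benjamini-Hochberg adjustment over 13780 genes (threshold 0.05). DESeq2 1.42.0, limma 3.58.1 (voom) and sva 3.50.0 served as alternatives. On simulated counts for the treated contrast, drawn gene by gene, the fit found 26 of 67 genes altered by 1.5-fold (38.8%), 58 of 67 at 2-fold (86.6%) and 65 of 66 at 4-fold (98.5%), with 8 false calls. The simulation held no livers that stood apart like pigs 39 and 46. Genes at the lowest levels were not altered, and many others were altered at once, which eases the adjustment. These shares may therefore be higher than in the real libraries.

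Named genes are the 10 with the smallest p in each direction where fewer than 10 passed, 4 per list described, genes in the study's text, and 5 per direction in the test of the difference. Some genes that meet these rules are not reported here. Members and lists were chosen with earlier results of these data known. The labels give no litter, week or sex, and piglets of 1 sow share a dam, so p-values treat related animals as independent. No 2 libraries were alike, since the smallest chi-square was 26.0 per gene over 1035 pairs, where counting error alone gives about 1.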

Additional observations from a re-analysis of the deposited data

How the results depend on the processing

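The count of 1 gene in treated piglets became 10 with DESeq2 on 4 groups, 7 with DESeq2 on the groups compared, 19 with limma voom, 5 with surrogate variables, 0 with DESeq2 size factors in edgeR, 0 with no filter on low counts, 0 without pigs 39 and 46 and 0 without pigs 38, 39 and 46. It stayed at 1 with *EIF1AY* as a covariate and with edgeR on the groups compared. *COL27A1* was called in 6 of the 8 settings that kept all libraries, *MAP4K4* and *SLC30A1* in 3 each. Of the 10 genes that DESeq2 called, 8 were among the 20 with the smallest p, and *LOC100522201* and *LOC100627836* were under the filter. Leaving out each treated library in turn gave 0 to 4 genes. The count was 0 without IUGR pigs 39, 46, 47, 53, 58, 59 or 65 or normal pigs 1, 4, 7, 22, 31, 32, 45, 50, 64 or 66, 2 without pigs 11, 29 or 68, and 4 without pig 33. The difference between contrasts, 0 genes, became 8 with DESeq2, 3 with limma voom, 2 with surrogate variables, 1 with no filter and 1 without pigs 38, 39 and 46. It was 0 to 1 with each treated library left out (1 without pig 31, *PUDP*), and no untreated library was left out alone. The causes were not tested. The log2 fold change of *COL27A1* was positive in all 35 alternatives (0.89 to 1.03), with adjusted p of 1.15e-06 to 0.152. Size factors moved the median of all genes by 0.016. No paired analysis was possible because the pig numbers are not shared between groups and litters are not labelled.

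All results rest on column headings in doubt, and 17 of 25 treated columns would change group under the other order. In simulated counts at these depths and group sizes 1.5-fold changes were mostly missed, and genes near the detection limit, such as *CRB2* and *CEL*, rest on few counts.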

Other observations

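Xenobiotic and bile acid genes were not described above. *CYP1A1*, which oxidises aromatic compounds, ran from 75.2 through a median of 348 to 1380 CPM in IUGR and from 26.3 through 191 to 760 in normal livers of treated piglets, with a log2 fold change of 1.12 ± 0.39 (edgeR adjusted p 0.225), or 0.95 without pigs 39 and 46. *AMACR*, a racemase of bile acid and branched fatty acid breakdown, ran from 19.6 through 25.5 to 33.8 CPM and from 22.5 through 38.4 to 64.5, with -0.58 ± 0.16, or -0.60 without the pair. *ABCB11*, the bile salt export pump, had medians of 380 and 470 CPM and -0.42 ± 0.17, or -0.26 without the pair, which had 138 and 85.0 CPM. *KLB*, the co-receptor for FGF19 and FGF21, had medians of 102 and 75.0 CPM and 0.42 ± 0.20, or 0.55 without the pair. With an unadjusted p under 0.05 there were 2 higher and 3 lower of 24 xenobiotic genes, and 2 and 2 of 21 bile acid genes. The shares of all genes were 13.7% higher and 3% lower. Without the pair there were 2 and 2, and 1 and 2, beside 2.07% and 2.42% of all genes. None passed.

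Of 20 clock genes, 1 was higher and 2 were lower at an unadjusted p of 0.05, beside 13.7% higher and 3% lower of all genes, and none passed. Without pigs 39 and 46 it was 1 higher and 3 lower, beside 2.07% higher and 2.42% lower of all genes. *PER3* had medians of 18.2 and 14.1 CPM in IUGR and normal livers and a log2 fold change of 0.30 ± 0.11, while *ARNTL*, which encodes BMAL1, had 16.2 and 22.5 CPM and -0.48 ± 0.18, and *CRY1* 28.4 and 31.4 CPM and -0.42 ± 0.16. Their unadjusted p were 0.00888, 0.0111 and 0.0114, and the hour of sampling of each animal was not in the labels. Genes high in fetal liver had 3 of 14 higher and 3 lower, and 0 higher and 3 lower without the pair. *PEG10* had medians of 937 and 1500 CPM and -0.69 ± 0.30, *MEST* 7.98 and 10.5 CPM and -0.47 ± 0.19, and *DLK1* 10.1 and 6.37 CPM and 1.36 ± 0.59, or 0.77 without pigs 39 and 46, where pig 46 had 113 CPM.

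*LOC110260350* on chromosome 4 (110415235 to 110424911) has a neighbour, *LOC780435* (110451442 to 110457254), looked up after its value was seen. In IUGR livers *LOC780435* ran from 23.6 through a median of 47.1 to 148 CPM, the highest in pig 46, and in normal livers from 38.4 through 130 to 217. The normal livers split into 5 between 38.4 and 61.9 CPM and 7 between 129 and 217, and the same 5 pigs (50, 64, 32, 44 and 66) were the lowest for *LOC110260350*. The log2 fold change of *LOC780435* was -1.12 ± 0.38 (edgeR adjusted p 0.221), and -1.43 without pigs 39 and 46.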
